A study of Saccharomyces cerevisiae with 20 samples.

Results

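The comparison sets 6 ribosome footprint libraries of budding yeast (Saccharomyces cerevisiae) with EcFMT against 6 with R42L. They were chosen by their titles, as every library labelled arf1D, hrc1D or NIP1_depl, and make up 12 of the 20 libraries of the series. EcFMT is the methionyl-tRNA formyltransferase of Escherichia coli, and R42L is the same enzyme with 1 amino acid substituted. Each of the 3 strain labels has EcFMT and R42L in 2 libraries. All cells are given as fmt1, and they were collected from synthetic complete medium at 30 °C once the A600 was about 0.5. Footprints were the RNA left in 80S ribosomes after RNase I.

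FMT1 encodes the yeast's own mitochondrial formyltransferase. Arf1, which arf1D refers to, is a GTPase that forms transport vesicles at the Golgi. The label hrc1D, which the deposited tables spell hcr1D, resembles HCR1, the gene of the initiation factor subunit eIF3j. NIP1_depl names the eIF3 subunit Nip1. The promoter that drives the enzyme, the way of depletion and the origin of the replicates are not given in the sources used here. Nothing in the labels says that replicates were separate cultures, so a p-value here reflects the spread among the deposited libraries, which may be technical.

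Bacteria and mitochondria start proteins with formylmethionine, made when a formyltransferase adds a formyl group to methionine already carried by the initiator tRNA. Cytosolic translation in yeast starts with methionine that is not formylated. Most N-terminal methionines are then removed by methionine aminopeptidases or acetylated, and a formyl group blocks the free amino end on which these enzymes act. The comparison asks which ribosome footprint counts differed between cells with the enzyme and cells with its substituted form, over strains with different defects.

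The 12 libraries held 3138210 expected counts, 1773827 with EcFMT and 1364384 with R42L. A library held 116641 to 505667. Of these counts, 96.4% lay on open reading frame features outside the RefSeq gene table, most of them on the strand opposite an abundantly translated gene. A feature is therefore named with the gene opposite it, as inferred from systematic names, overlap or general knowledge of the yeast genome. Whether these counts are reads of the gene opposite, assigned to the other strand, was not tested, so a value below is that of the feature as deposited and not a measure of either strand's translation. Counts under a gene's own name are likewise not read as its translation. The CDC19 gene itself (R64 chromosome I, 71786 to 73288) held 1.0 count with EcFMT and 1.0 with R42L. The genes behind the labels could not be followed for that reason. FMT1 held 0 counts with EcFMT and 0 with R42L, which allows up to 9.56e-05% of all counts as far as counting error goes. ARF1 held 0.5 counts with EcFMT and 1.5 with R42L, HCR1 held 1.0 with EcFMT and 1.0 with R42L, and NIP1 held 2.0 with EcFMT and 0 with R42L.

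No feature differed between EcFMT and R42L over the 3 strains at an adjusted p under 0.05. The test was edgeR's quasi-likelihood test with strain as a block and Benjamini-Hochberg adjustment, and it called 0 of 928 features (0.0%). The smallest adjusted p was 0.871. At an unadjusted p under 0.05 there were 48 features (5.17%), 35 of them higher with EcFMT (3.77%) and 13 lower (1.4%). Scaling sets the typical feature to no change, so a change shared by all features would not show here.

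Absence of a call does not bound a change, so the 95% interval of each log2 change was read instead. A feature is called bounded at 1.5-fold when its whole interval lies between a 1.5-fold decrease and a 1.5-fold increase. Of the 257 features that averaged 50 or more counts, 254 were bounded at 1.5-fold (98.8%). These 257 features held 95.9% of all counts, and 240 of them lay outside RefSeq. Their intervals lay within 2-fold for all 257 (100.0%), within 1.2-fold for 116 (45.1%) and within 1.1-fold for 15 (5.84%). A pair of one-sided tests against 1.5-fold, adjusted over the 257, passed for 255. The farther end of the interval, called the bound below, had a median of 1.21-fold. The median log2 change was 0.02, 143 of the 257 changes were positive, and the middle 90% of changes lay between -0.18 and 0.21. The median turned to -0.02 with RLE size factors and with DESeq2, so its sign rests on the scaling.

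**Figure D1:**
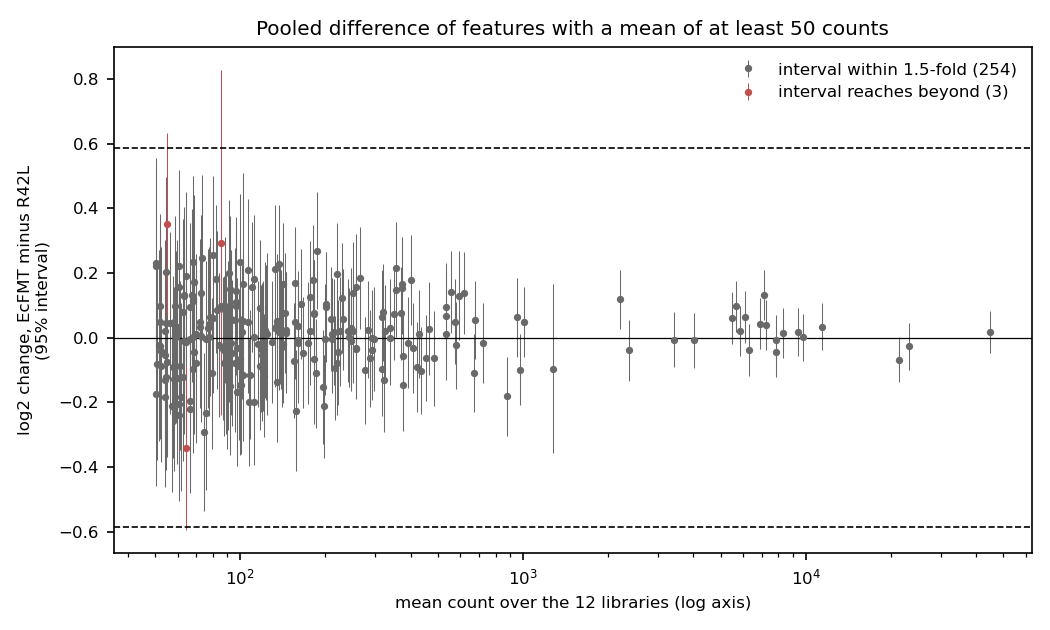
Pooled log2 change, EcFMT minus R42L, with its 95% interval (y axis) against mean count over the 12 libraries (log x axis) for the 257 features averaging 50 or more counts. Dashed lines mark 1.5-fold. 254 intervals lie inside them, and the intervals narrow as counts increase.

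The bound depended on depth. All 37 features that averaged 500 or more counts were bounded at 1.5-fold, with a median bound of 1.11-fold, and the 23 with at least 1000 had a median bound of 1.08-fold. Among the 671 tested features with fewer than 50 counts the median bound was 2.17-fold, and only 268 intervals lay within 2-fold. For the rest the interval reached beyond a 2-fold change. Most features, the 6694 kept as open reading frames less the 928 tested, held too few counts for any statement.

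The glycolytic features took the most counts and had narrow bounds. CDC19 encodes pyruvate kinase, PGK1 phosphoglycerate kinase and GPM1 phosphoglycerate mutase. YAL037C-B, opposite CDC19, took 20.6% and 20.7% of the library in arf1D with EcFMT against 20.8% and 20.9% with R42L. It took 16.3% and 16.4% in hrc1D with EcFMT against 15.8% and 16.7% with R42L, and 8.11% and 7.59% in NIP1_depl with EcFMT against 7.67% and 7.71% with R42L. The strains differed far more than the enzyme forms, whose shares overlapped in hrc1D and NIP1_depl. The pooled log2 change of YAL037C-B was 0.02 ± 0.03 (SE, n = 6 each; adjusted p = 0.997, edgeR) with a bound of 1.06-fold. YCR013C, opposite PGK1, had a log2 difference of -0.03 with a bound of 1.07-fold, and YKL153W, opposite GPM1, one of -0.07 with a bound of 1.1-fold. All 3 glycolytic features were bounded at 1.2-fold and their median change was -0.03, against 0.02 over the 257 features.

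**Figure D2:**
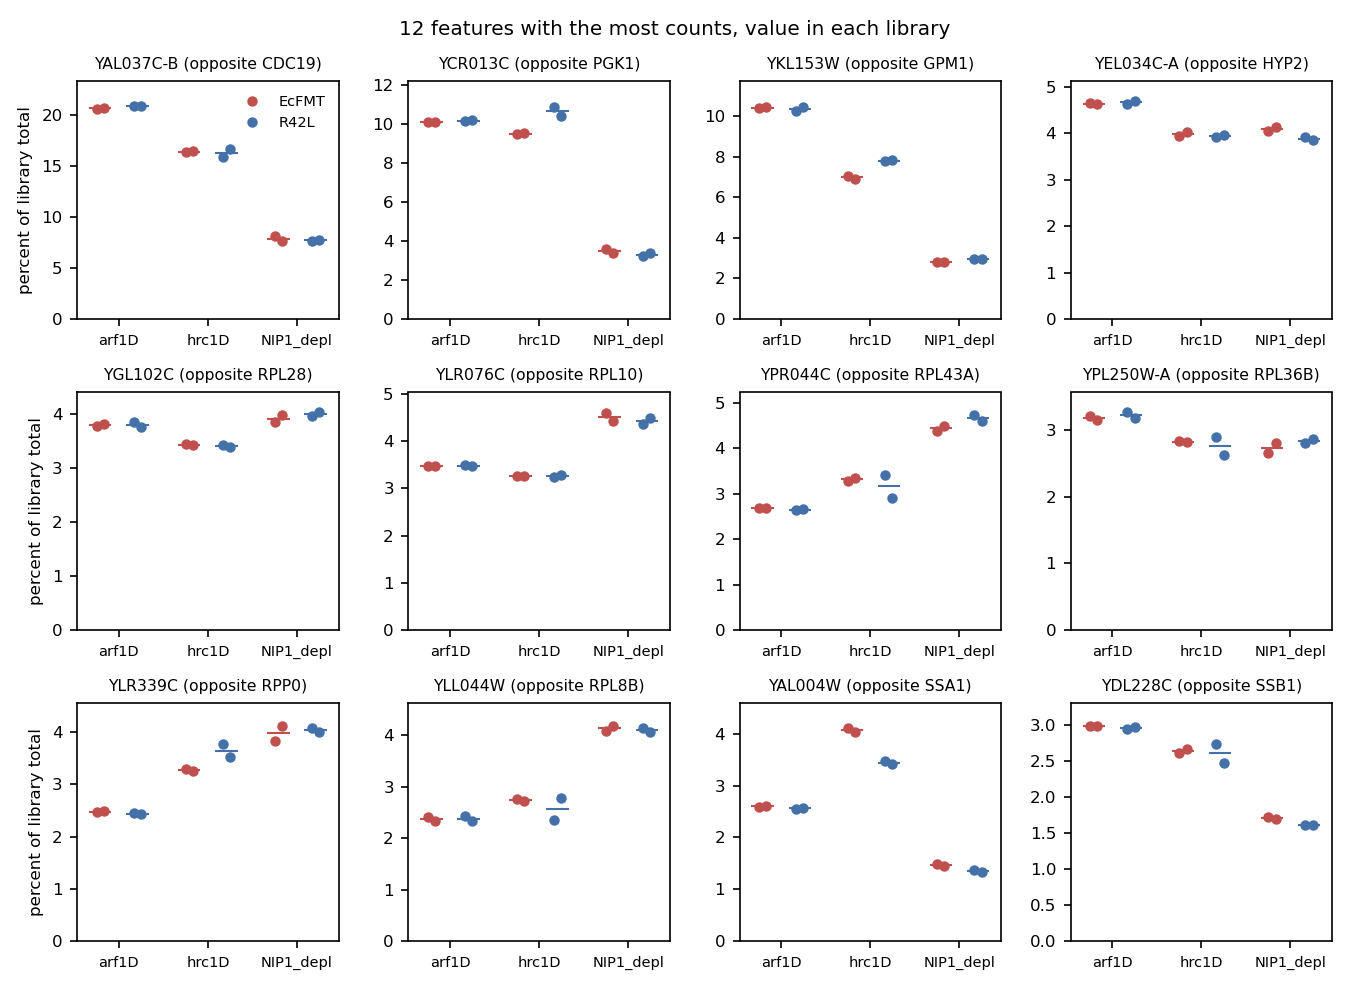
Percent of the library total (y axis) in each library for the 12 features with the most counts, by strain, with EcFMT left of R42L; points are libraries and lines are means of 2. The 3 glycolytic features take less of the library in NIP1_depl than in arf1D with either form of the enzyme. In hrc1D the 2 forms do not overlap for YCR013C, YKL153W, YLR339C and YAL004W, among others.

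Features opposite ribosomal protein genes had narrow bounds too. All 12 tested features opposite core ribosomal protein genes were bounded at 1.2-fold, and their highest bound was 1.13-fold. Their median change was 0.02 and 8 of the 12 were positive. YGL102C, opposite RPL28 (VII, 310967 to 311927), which encodes a large-subunit protein, took 3.78% and 3.81% in arf1D with EcFMT against 3.86% and 3.75% with R42L. It took 3.44% and 3.43% in hrc1D with EcFMT against 3.43% and 3.39% with R42L, and 3.84% and 3.98% in NIP1_depl with EcFMT against 3.96% and 4.04% with R42L. The forms overlapped in arf1D and NIP1_depl and lay close together in hrc1D. Its change of 0.00 had a bound of 1.05-fold, the lowest of the 257. YLR076C, opposite RPL10, had a bound of 1.06-fold, YPR044C, opposite RPL43A, 1.06-fold, YPL250W-A, opposite RPL36B, 1.06-fold, and YLL044W, opposite RPL8B, 1.08-fold. YGL123C-A, opposite the small-subunit gene RPS2, had a log2 difference of -0.01 with a bound of 1.06-fold. YLR062C, opposite RPL22A, and YJL188C, opposite RPL39, had -0.04 and 0.06, with bounds of 1.08-fold and 1.11-fold. YPL142C, opposite RPL33A, was the member of lowest p, with a change of 0.10 (unadjusted p = 0.0166, adjusted p = 0.906, edgeR) and a bound of 1.13-fold. Near-identical gene copies such as RPL12A and RPL12B may share reads, so YEL053W-A and YDR417C, opposite them, are uncertain. The same limit applies to any other feature here opposite a gene with such a copy, and read sharing was not tested.

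The stalk feature YLR339C lies opposite RPP0 (XII, 805887 to 806825), whose protein anchors the stalk on which translation factors bind. It took 2.47% and 2.48% in arf1D with EcFMT against 2.45% and 2.43% with R42L, and 3.82% and 4.13% in NIP1_depl with EcFMT against 4.07% and 4.01% with R42L. In hrc1D it took 3.29% and 3.26% with EcFMT against 3.77% and 3.52% with R42L, so there the EcFMT libraries were lower without overlap. In arf1D the EcFMT libraries were slightly higher, also without overlap, and in NIP1_depl the forms overlapped. Pooled, it had a log2 difference of -0.04 with a bound of 1.09-fold.

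All 5 features opposite translation factor or tRNA synthetase genes were bounded at 1.2-fold, with a median change of 0.03. YEL034C-A, opposite HYP2 (V, 85676 to 86149), the gene of eIF5A, took 4.65% and 4.63% in arf1D with EcFMT against 4.64% and 4.70% with R42L. It took 3.94% and 4.02% in hrc1D with EcFMT against 3.92% and 3.98% with R42L, and 4.06% and 4.13% in NIP1_depl with EcFMT against 3.91% and 3.86% with R42L. The forms overlapped in arf1D and hrc1D, and EcFMT was higher in NIP1_depl. The pooled change was 0.03 with a bound of 1.08-fold. YGR265W, opposite MES1, whose product charges tRNA with methionine, had a log2 difference of 0.06 ± 0.07 (SE, n = 6 each) with a bound of 1.16-fold. YPL238C, opposite SUI3, the gene of the beta subunit of eIF2, which carries initiator tRNA to the ribosome, had a log2 difference of -0.11 with a bound of 1.17-fold. YOR277C, opposite CAF20, which encodes an eIF4E-binding protein, had a log2 difference of 0.10 with a bound of 1.17-fold.

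All 9 ribosome biogenesis features were bounded at 1.5-fold and 5 of them at 1.2-fold. Their median pooled change was -0.03, with within-strain medians of -0.01 in arf1D, -0.14 in hrc1D and -0.12 in NIP1_depl. YLR198C, opposite NOP56, which encodes a box C/D snoRNP protein, had a log2 difference of -0.08 with a bound of 1.18-fold. YDR413C (RRP17), YMR290W-A (HAS1), YOR146W (PNO1) and YPR142C (RRP15) had log2 differences of -0.02, 0.04, 0.03 and -0.03. Their bounds were 1.15-fold, 1.15-fold, 1.14-fold and 1.16-fold. YDL152W, opposite SAS10, had -0.12. YBR266C, opposite REI1, whose product matures large subunits in the cytoplasm, had -0.12 with a bound of 1.27-fold. YKL083W, opposite RRP14, had the highest bound of the list, 1.32-fold, with a log2 difference of -0.17. Within strains its differences were -0.01 in arf1D, -0.14 in hrc1D and -0.70 ± 0.27 in NIP1_depl (SE, n = 2 each). The NIP1_depl estimate itself lay beyond 1.5-fold but was not called (adjusted p = 0.901, edgeR). The pooled bound thus does not bound the change in that strain alone.

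The 6 chaperone and heat shock features were bounded at 1.5-fold and 5 of them at 1.2-fold, with a median change of 0.05. YAL004W, opposite SSA1 (I, 139503 to 141431), a cytosolic Hsp70 gene, had the lowest p of all 928 features. It took 2.58% and 2.61% of the library in arf1D with EcFMT against 2.56% and 2.58% with R42L. It took 4.11% and 4.04% in hrc1D with EcFMT against 3.48% and 3.41% with R42L, and 1.49% and 1.44% in NIP1_depl with EcFMT against 1.36% and 1.34% with R42L. EcFMT was higher in all 3 strains, by little in arf1D. Its change was 0.13 ± 0.04 (SE, n = 6 each), the unadjusted p was 0.000938 and the adjusted p 0.871 (edgeR), and the interval ran from 0.05 to 0.21. Its bound of 1.16-fold was thus narrow while the interval left out 0. The feature was called where each strain and form had its own mean (adjusted p = 0.0435) and in a fit of 16 libraries (adjusted p = 0.0127), and the range over all alternatives was 0.0127 to 1.0. YDL228C, opposite SSB1, whose Hsp70 binds emerging chains at the ribosome, had a log2 difference of 0.04 with a bound of 1.09-fold. YDR187C and YIL142C-A, opposite the chaperonin genes CCT6 and CCT2, had log2 differences of 0.08 and -0.06, each with a bound of 1.16-fold. YLR217W, opposite CPR6, a cyclophilin gene of the Hsp90 system, had 0.05 with a bound of 1.13-fold. YGL074C, opposite HSF1, the gene of the heat shock transcription factor, had 0.05 on a mean of 51.9 counts and a bound of 1.26-fold.

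The 4 amino acid metabolism features were bounded at 1.5-fold and 2 of them at 1.2-fold, with a median change of 0.01. Among them YHR137C-A, opposite ARO9, an aromatic aminotransferase gene, had a log2 difference of 0.13 with a bound of 1.2-fold, although its hrc1D difference was 0.66. YLR437C-A, opposite CAR2 of arginine breakdown, had a bound of 1.13-fold, YNL103W-A, opposite LEU4 of leucine synthesis, 1.17-fold, and YER090C-A, opposite TRP2 of tryptophan synthesis, 1.21-fold. YDL023C, opposite GPD1, whose enzyme leads to glycerol, had a bound of 1.28-fold despite a mean of 1276 counts. In hrc1D it took 0.356% and 0.365% with EcFMT against 0.542% and 0.390% with R42L, and replicate 1 with R42L was the high one. YPR050C, opposite MAK3, which encodes the catalytic subunit of an N-terminal acetyltransferase, had a log2 difference of 0.10 with a bound of 1.2-fold. It took 0.0599% and 0.0617% in arf1D with EcFMT against 0.0498% and 0.0559% with R42L, and the forms overlapped in hrc1D and NIP1_depl. YMR135W-A, opposite GID8 of a ubiquitin ligase, and YGL214W, opposite SKI8 of an mRNA decay complex, had log2 differences of -0.03 and 0.09, with bounds of 1.18-fold and 1.24-fold. The 3 features at the RGI1 locus, RGI1 being a respiratory growth gene, were bounded at 1.5-fold, with a median change of 0.13. Of these, YER066C-A and YER068C-A have several candidate genes opposite them. YER067C-A, opposite RGI1, took 0.00401% and 0.0120% in NIP1_depl with EcFMT against 0.0111% and 0.0138% with R42L. An alternative fit took log2 scaled counts unweighted, with the spread of each feature alone. There YER067C-A had a change of -0.06 and a bound of 1.53-fold, beyond 1.5-fold.

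**Figure D3:**
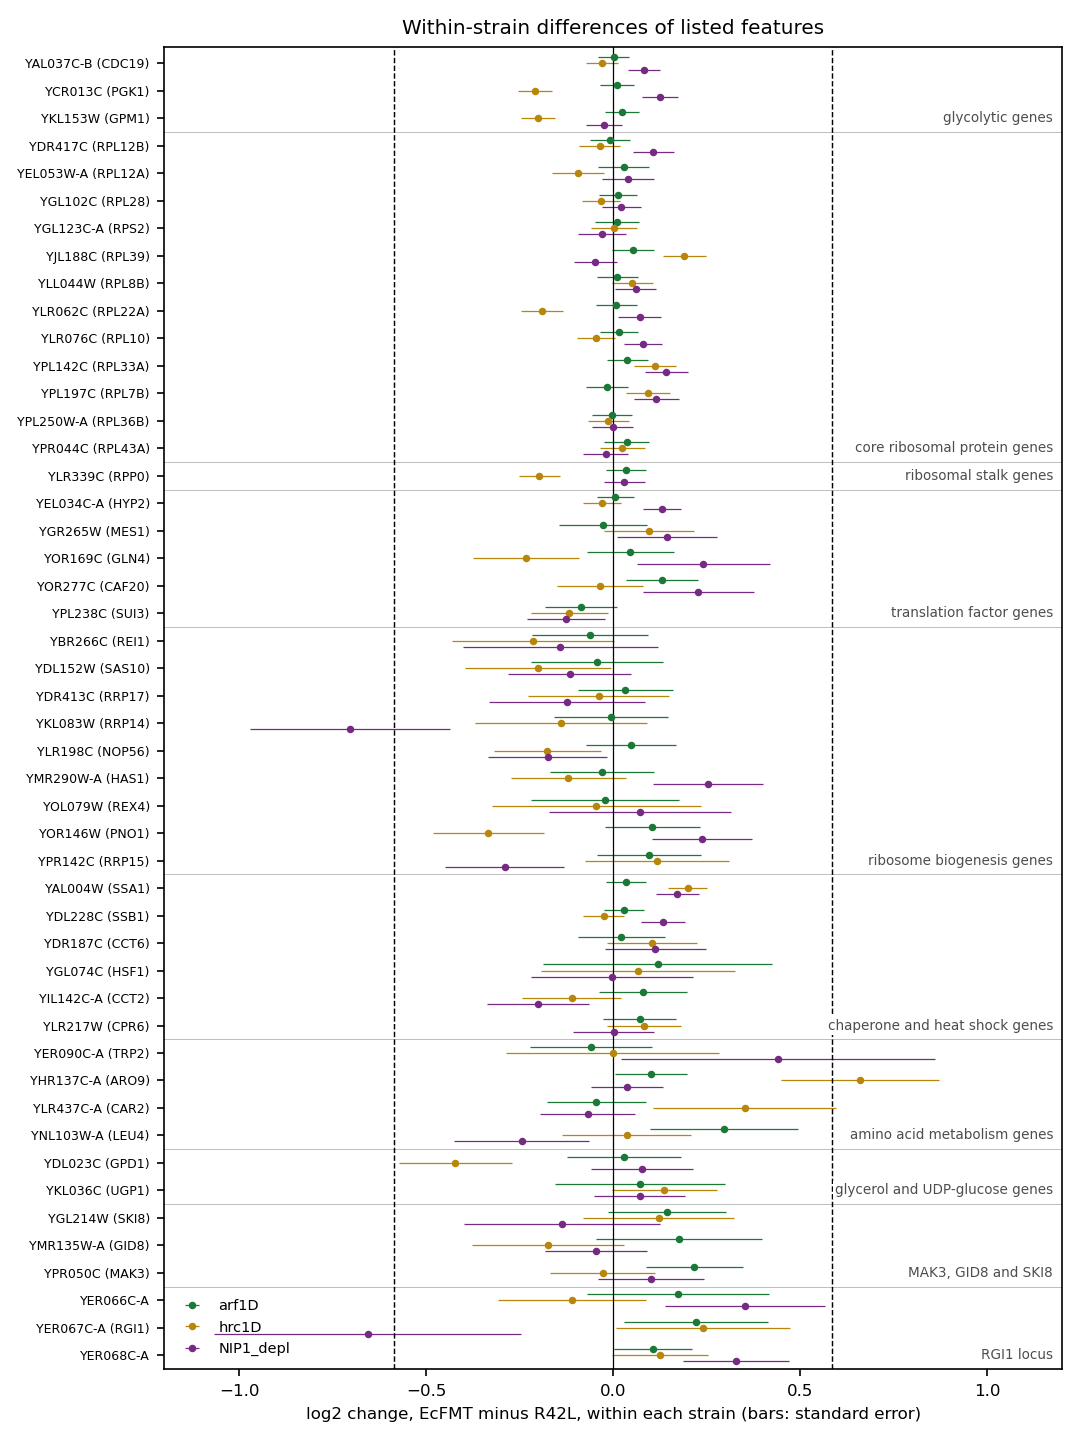
Log2 change within each strain, EcFMT minus R42L (x axis, bars are standard errors), for the listed features averaging 50 or more counts, with the opposite gene in brackets. Dashed lines mark 1.5-fold. Most points lie inside the lines, with RRP14 and RGI1 in NIP1_depl and ARO9 in hrc1D outside.

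Genes of the formylation and N-terminal pathway under their own names held too few counts for values. The 5 genes of methionine and formylmethionine handling held 1.0 count with EcFMT and 0 with R42L. The 9 N-terminal acetyltransferase genes held 30.98 with EcFMT and 25.0 with R42L. The 24 initiation factor genes held 21.0 with EcFMT and 4.0 with R42L, and the 18 Gcn4 target genes 25.0 with EcFMT and 23.0 with R42L. None of these genes could be tested. The 12 ribosome quality control genes held 193 with EcFMT and 109 with R42L, and 2 of them were tested without a call.

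Of the 257 features, 8 were higher with EcFMT without overlap in all 3 strains (3.11%) and 3 were lower (1.17%), on the scaled counts. On shares of the library total 6 of those 8 and all 3 lower ones kept the separation. The 3 lower ones were YMR245W, YAL059C-A and YNR005C, all picked out by their values in these libraries. YMR245W was named for its small p, and YAL059C-A and YNR005C after their values were seen. YCR087W, opposite YCR087C-A, took 0.126% and 0.129% in arf1D with EcFMT against 0.118% and 0.119% with R42L. It took 0.117% and 0.112% in hrc1D with EcFMT against 0.0837% and 0.0847% with R42L, and 0.225% and 0.246% in NIP1_depl with EcFMT against 0.210% and 0.219% with R42L. It was higher with EcFMT in each strain. Its pooled change was 0.22 ± 0.07 (SE, n = 6 each; adjusted p = 0.906, edgeR) with a bound of 1.28-fold. YDR512C, which RefSeq holds as EMI1, lies opposite GRX2, a glutaredoxin gene, and had a log2 difference of 0.27 with a bound of 1.37-fold. On shares it lost the separation, with 0.246% and 0.261% in NIP1_depl with EcFMT against 0.233% and 0.252% with R42L. Without hrc1D R42L replicate 1 the difference of YDR512C was 0.17. YOR199W, opposite BFR1, and YBR134W, opposite HSL7, had log2 differences of 0.76 and 0.52 on means of 18.6 and 32.2 counts, with bounds of 2.45-fold and 1.88-fold.

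YMR245W, opposite COA6, which encodes a cytochrome oxidase assembly factor, was lower with EcFMT in each strain. It took 0.0490% and 0.0501% in arf1D with EcFMT against 0.0525% and 0.0611% with R42L. It took 0.0687% and 0.0633% in hrc1D with EcFMT against 0.0768% and 0.0749% with R42L, and 0.131% and 0.150% in NIP1_depl with EcFMT against 0.165% and 0.173% with R42L. Its change of -0.21 had an adjusted p of 0.906 (edgeR) and a bound of 1.30-fold. The other low-p features that were lower with EcFMT have several candidate genes opposite them. YGR160W, YMR193C-A and YPL182C had log2 differences of -0.18, -0.23 and -0.29, with bounds of 1.23-fold, 1.33-fold and 1.45-fold. Without hrc1D R42L replicate 1 the differences were -0.11, -0.12 and -0.17, and YMR193C-A had -0.13 without NIP1_depl EcFMT replicate 1. In arf1D alone YGR160W and YPL182C had 0.05 and 0.05, the other sign.

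The 3 features not bounded at 1.5-fold had means of 55.2 to 85.3 counts. YOR333C, between VMA4 and MRS2, had a log2 difference of 0.35 with a bound of 1.55-fold, and YIR020C-B had a log2 difference of -0.34 with a bound of 1.51-fold. YIL082W-A, a Ty3 retrotransposon reading frame that has near-identical copies and is therefore uncertain, had a log2 difference of 0.29 with a bound of 1.77-fold.

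Pooling assumes that the strains share 1 difference. Departures from this were tested, but with 2 libraries per strain and form, a departure not called is not bounded. The pooled bounds are thus for the pooled difference and not for each strain. Within strains edgeR's quasi-likelihood test called 0 of 928 features in arf1D (0.0%), 2 in hrc1D (0.216%) and 0 in NIP1_depl (0.0%). At an unadjusted p under 0.05 there were 37 features in arf1D (3.99%), 65 in hrc1D (7.0%) and 33 in NIP1_depl (3.56%). The 2 called in hrc1D were YCR013C and YKL153W, opposite PGK1 and GPM1. YKL153W took 7.06% and 6.90% in hrc1D with EcFMT against 7.78% and 7.81% with R42L, a log2 change of -0.20 ± 0.05 (SE, n = 2 each; adjusted p = 0.0121, edgeR). YCR013C took 9.49% and 9.53% in hrc1D with EcFMT against 10.9% and 10.4% with R42L, a change of -0.21 ± 0.05 (SE, n = 2 each; adjusted p = 0.0121, edgeR).

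An F test that the 3 within-strain differences are equal called 1 of 928 features (0.108%). Without adjustment, 50 had a p under 0.05 (5.39%). The called feature was YCR013C, whose differences were 0.01 in arf1D, -0.21 in hrc1D and 0.13 in NIP1_depl (adjusted p = 0.00776, edgeR). The pooled bound of YCR013C is thus taken over differences that this test calls unequal. The call was lost with RLE size factors (adjusted p = 0.35) and with library totals (adjusted p = 0.219). It was also lost without replicate 1 of hrc1D R42L (adjusted p = 0.318), hrc1D EcFMT (adjusted p = 0.286), NIP1_depl R42L (adjusted p = 0.712) or NIP1_depl EcFMT (adjusted p = 0.0985), and without NIP1_depl R42L replicate 2 (adjusted p = 0.104). YHR182C-A, opposite GND1, a pentose phosphate pathway gene, followed with -0.26 in hrc1D and 0.13 in NIP1_depl and was not called (adjusted p = 0.207).

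The hrc1D R42L replicate 1 library stood apart. A chi-square of its counts per degree of freedom was 4.06 and 4.07 against the EcFMT libraries of its strain and 2.93 against the other R42L library. The other pairs within a strain gave 1.40 to 2.35, so every pair differed by more than sampling noise and no library was counted as a copy. Leaving it out kept 253 of 257 features bounded at 1.5-fold. Without it the strain dependence of YCR013C was not called, as given above.

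Some measures of whole libraries differed between the enzyme forms. A library total is the depth of the deposited counts, and whether it reflects the cells or the making of the library was not tested. Totals were 405050 and 505667 counts in arf1D with EcFMT against 386351 and 405443 with R42L. They were 271949 and 274702 in hrc1D with EcFMT against 153490 and 171984 with R42L, and 141758 and 174607 in NIP1_depl with EcFMT against 116641 and 130410 with R42L. The mean difference was 68236 counts (exact permutation within strain, two-sided, p = 0.0185, adjusted p = 0.0432 over 7 measures). The smallest p that the arrangements within strains allow is 0.00926. Totals were higher with EcFMT in hrc1D and NIP1_depl without overlap, and overlapped in arf1D. Without arf1D R42L replicate 2 the difference was 65054 (exact permutation p = 0.0556). Features in RefSeq took 3.78% and 3.91% in hrc1D with EcFMT against 3.22% and 3.69% with R42L, and 9.86% and 10.0% in NIP1_depl with EcFMT against 9.63% and 9.67% with R42L. In arf1D they took 1.52% and 1.55% with EcFMT against 1.45% and 1.55% with R42L. The mean difference was 0.235 percentage points (exact permutation p = 0.0185, adjusted p = 0.0432). It missed 0.05 without the 3 glycolytic features (0.279, exact permutation p = 0.0556), without hrc1D EcFMT replicate 1 (0.215, exact permutation p = 0.0833) and without hrc1D EcFMT replicate 2 (0.256, exact permutation p = 0.0741). More features had a count with EcFMT, by 317 on average (exact permutation p = 0.00926, adjusted p = 0.0432). At the common depth of the shallowest library the difference was 82.0 features (exact permutation p = 0.0278), against 317 without thinning. The thinning was added to the planned tests and its p is unadjusted. Thinned numbers overlapped in arf1D (895.0 and 895.6 with EcFMT against 869.4 and 895.8 with R42L). In hrc1D and NIP1_depl they were higher with EcFMT without overlap.

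The share of the library opposite the 3 glycolytic genes differed by -0.617 percentage points (exact permutation p = 0.167, adjusted p = 0.205), and was -0.198 in arf1D, -1.83 in hrc1D and 0.178 in NIP1_depl. It was 32.9% and 32.9% in hrc1D with EcFMT against 34.5% and 34.9% with R42L. The share opposite ribosomal protein genes differed by 0.0543 percentage points (exact permutation p = 0.759). These differences were small beside those between strains, where the glycolytic share was 41.1% ± 0.124 in arf1D with EcFMT and 14.1% ± 0.522 in NIP1_depl with EcFMT (SD, n = 2 each).

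**Figure D4:**
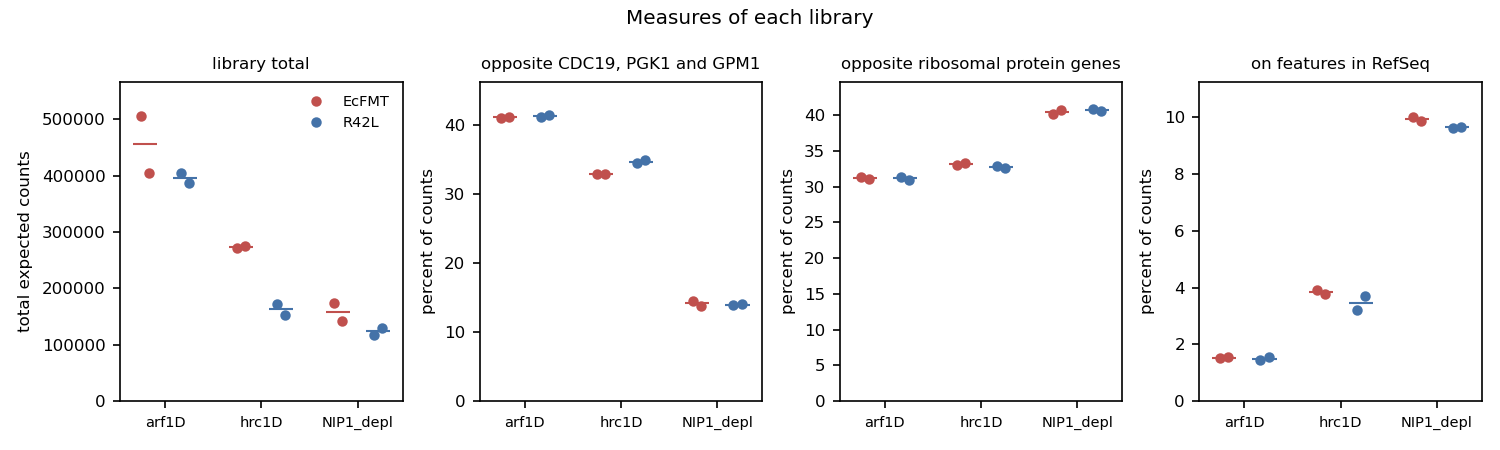
Library total and percent of counts on 3 kinds of feature (y axes, from 0) in each library, by strain, with EcFMT left of R42L; points are libraries and lines are means of 2. Totals average higher with EcFMT in each strain, while the shares differ mainly between strains.

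RLI1_depl, named for the recycling ATPase Rli1, was set against the mean of the 3 strains to see where it differs. Its libraries held 92575 to 123178 counts with EcFMT and 58079 to 104369 with R42L. Its EcFMT minus R42L difference departed from the mean of the other 3 strains for 36 of 1151 features tested in those 16 libraries (3.13%), 21 upward (1.82%) and 15 downward (1.3%), by edgeR's quasi-likelihood test. Of the 13 features opposite ribosomal protein genes, stalk included, 8 were called (61.5%), all upward, against 29 of the 257 features averaging 50 or more counts (11.3%). The 13 held far more counts than most of the 257, and intervals narrow as counts increase, so these shares are at unlike depth. A share among features of like depth was not taken. YLR339C, opposite RPP0, had a log2 difference of 0.45 in RLI1_depl and of -0.02 on average in the 3 strains, a difference of 0.47 ± 0.07 (SE; adjusted p = 2.18e-07). YEL034C-A, opposite HYP2, had a log2 difference of 0.52 in RLI1_depl and of 0.06 in the 3 strains. YPL238C, opposite SUI3, had a log2 difference of 0.62 in RLI1_depl and of -0.08 in the 3 strains. YER067C-A, opposite RGI1, had a log2 difference of -2.33 in RLI1_depl and of -0.04 in the 3 strains. In each of these 4 features the RLI1_depl difference was the larger in size, but all 4 were taken from the called features. For YIL082W-A, also called, the mean of the 3 strains was the larger.

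**Figure D5:**
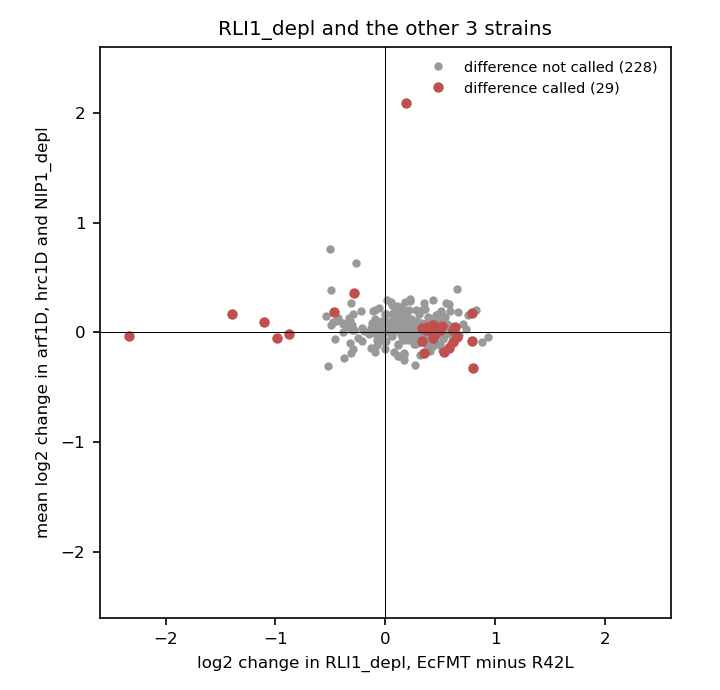
Log2 change in RLI1_depl (x axis) against the mean log2 change of arf1D, hrc1D and NIP1_depl (y axis), both EcFMT minus R42L, for features averaging 50 or more counts; red points mark differences between the axes at an adjusted p under 0.05. The 29 called features spread along the x axis, apart from YIL082W-A at 2.09 on the y axis, which rests on few counts in arf1D.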

How the data were processed

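The authors deposited expected counts per gene feature, with no scaling for depth. The tools, per the submitters' processing notes, were STAR 2.7.2b and RSEM 1.2.31, and the build was R64. No source used here gives the strand setting, so the strand from which a feature's reads came is not known. Of 7127 features, 6694 with an open reading frame name or a protein-coding RefSeq entry were kept, pseudogenes excepted. The 433 others held 159 counts in the 12 libraries. A RefSeq table of R64 matched 6047. A gene opposite a feature was found from the order of systematic names for 274, by hand for 19 and by an overlap of at least 30 nt for 68; 332 had several candidates.

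Expected counts were rounded and tested in edgeR 4.0.16 (R 4.3.3; TMM factors 0.464 to 2.24; filterByExpr, minimum count 10; robust quasi-likelihood fit of strain and enzyme form; common biological coefficient of variation 0.0751; 8 residual degrees of freedom). Intervals used the SE, the absolute log2 change over the square root of F. Pooled changes weight strains by their counts. DESeq2 1.42.0 and limma 3.58.1 were alternatives. Shares are of the library total.

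Named features were the 12 with most counts, list members with a mean of at least 50 counts, the 5 of smallest p per direction, the 3 of smallest p for strain dependence and those beyond 1.5-fold. Members, lists and hand assignments were chosen with earlier results of these data known. RNA sequencing is not analysed here, so footprints were not divided by transcript levels, and MTF and MTFi libraries were left out.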

Additional observations from a re-analysis of the deposited data

Results flagged for a closer look

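No outlier test within a strain and form is given, since each has 2 libraries. The chi-square between libraries of a strain, given above, set hrc1D R42L replicate 1 apart. The strain difference of YCR013C, opposite PGK1, was significant by the F test, with its lowest log2 change of -0.21 in hrc1D.

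Of the features named here, 19 had an EcFMT minus R42L difference in RLI1_depl that departed from the mean of the 3 strains, with the following log2 departures (edgeR, adjusted p under 0.05). Among features opposite ribosomal protein genes, YLR339C (RPP0) had 0.47, YGL123C-A (RPS2) 0.48, YGL102C (RPL28) 0.42, YEL053W-A (RPL12A) 0.39, YLL044W (RPL8B) 0.37, YPL250W-A (RPL36B) 0.35, YDR417C (RPL12B) 0.34 and YLR076C (RPL10) 0.29. Among features opposite factor, biogenesis and metabolic genes, YLR198C (NOP56) had 0.87, YPL238C (SUI3) 0.70, YEL034C-A (HYP2) 0.45 and YDL023C (GPD1) 0.41. Of those with low p or wide intervals, YIR020C-B had 1.13, YGR160W 0.72, YMR193C-A 0.54 and YDR512C -0.64. YIL082W-A had -1.90, which comes from its 3-strain mean of 2.09 and not from its RLI1_depl difference of 0.19. That mean rests on 13.5 counts in 1 arf1D EcFMT library, against 0 in the other. At the RGI1 locus, YER066C-A had -1.56 and YER067C-A -2.30. The RLI1_depl libraries held 92575 to 123178 counts with EcFMT and 58079 to 104369 with R42L, and the part of depth in these departures was not tested.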

How the results depend on the processing

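The pooled test called 0 features under every scaling, tool, filter and left-out library or strain, and 2 in a fit of 16 libraries (YAL004W and YIL082W-A) and 1 with a mean per strain and form (YAL004W). The number bounded at 1.5-fold was 251 to 254 over left-out libraries, 254 with RLE factors or library totals and 251 with DESeq2. It was 235 without arf1D, 253 without hrc1D and 236 without NIP1_depl. The unweighted fit of log2 scaled counts, with the spread of each feature alone, gave 237 and was chosen after seeing the data. In the main fit the number was 155 of 155 at a mean of at least 100 counts and 37 of 37 at 500. It was 16 without the strain block, since strain differences then enter the spread. Testing every feature with a count, without a filter, put the median log2 change over all features at 0.17, against 0.03.

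Replicate numbers did not pair the samples: deviations of same-numbered libraries correlated at -0.11 in arf1D, -0.05 in hrc1D and -0.11 in NIP1_depl over 257 features. With a replicate block 0 features were called and 255 were bounded.

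Strain dependence called 0 features with RLE factors, library totals, no filter, 16 or 20 libraries and without arf1D or NIP1_depl, 2 with limma-voom, and 0 to 16 over left-out libraries, 16 of them without hrc1D R42L replicate 2; the cause was not tested. RLI1_depl departures numbered 16 without a filter, 23 among features outside RefSeq alone, and 26 to 44 over left-out libraries.

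The difference in library totals ranged over 51466 to 85005 with a library left out and was 72623 without arf1D, 47059 without hrc1D and 85025 without NIP1_depl, where 0.0556 is the smallest exact permutation p that the remaining 2 strains allow, so none could pass 0.05. The RefSeq share difference ranged over 0.158 to 0.313 and was 0.337, 0.157 and 0.212 without those strains, and 0.279 without the 3 glycolytic features (exact permutation p = 0.0556), chosen after seeing the data. Features with a count differed by 426, 197 and 327 without them. The glycolytic share difference ranged over -0.739 to -0.494. The ribosomal share difference ranged over -0.0546 to 0.163, changed sign without arf1D R42L replicate 2 (-0.0168) or NIP1_depl EcFMT replicate 2, and was -0.156 without hrc1D, where the glycolytic to ribosomal ratio differed by 0.000214, against -0.0233 with it.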
